A study of Caenorhabditis elegans with 2 samples.

Results

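The genes described are the nuclear hormone receptors of Caenorhabditis elegans, taken as every protein-coding gene whose symbol is nhr- followed by a number. There are 269 such genes among 19973 protein-coding genes on the nuclear chromosomes. The worms, strain RW12180, carried an insertion made by CRISPR on chromosome I, st12180[dox-1::TY1::EGFP::3xFLAG], and were whole young adults of 66 hours, grown from larvae synchronised by bleaching and starvation. The 2 biological replicates form the only group, and every worm carried the tag, so there is no untagged strain among them. The description of the samples also calls the worms transgenic, and gives no driving promoter. The labels call the fused gene dox-1 and the CRISPR target dxbp-1, and the annotation holds only the latter name. Chromatin was sonicated to 200 to 800 bp and pulled down through GFP, per the description, although the antibody field of the labels reads dox-1. An experiment listed as a possible control was not analysed here, so whether a summit depends on the tagged protein was not tested. In whole worms a site cannot be assigned to a tissue.

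Nuclear hormone receptors are transcription factors with a zinc finger domain that binds DNA and a domain that can bind a small lipophilic ligand. Nematodes have a greatly expanded family, most of it related to the vertebrate receptor HNF4, and many members lie in clusters on chromosome V. A minority have clear counterparts in insects and vertebrates, and these act in moulting, cell fate, sterol response and fat metabolism. Ligands are known for few members.

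A gene is called bound when the summit of a peak in the conservative set, the authors' stricter list from both samples, lay from 1000 bp upstream to 200 bp downstream of any of its transcript starts. By this rule 19 of the 269 members were bound, or 7.06% (Wilson 95% interval 4.57 to 10.8). Of all protein-coding genes 10.9% were bound. By this rule the share bound was lower in the family than in the genome at large, a difference described here without a test. The rule lets a summit count for several genes, and 1070 of the 2184 bound genes shared theirs, against 3 of 19 members. With each summit given to its nearest start only, 6.69% of members were bound (interval 4.27 to 10.3). All genes then had 8.13%, which lies inside that interval. Under the main rule the other 250 members had no conservative summit in the window. The bound members were nhr-47, nhr-142, nhr-57, nhr-50, nhr-135, nhr-131, nhr-193, nhr-65 and nhr-86 on chromosome V, nhr-255, nhr-35, nhr-1 and nhr-48 on X, nhr-41, nhr-66, nhr-8 and nhr-105 on IV, nhr-49 on I and nhr-119 on II.

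The DNA under some of these summits is shown first, chosen by whether a repeat of GA, a tRNA gene or neither lay there. The sets are not exclusive by letters, since nhr-1 in the first set also holds the motif marked in the second. Each stretch runs 50 bp to either side of the summit on build ce11 (WBcel235), read from the RefSeq genome and written on the strand of the receptor gene. None overlaps an annotated exon of a protein-coding gene. In the first set, capitals mark GAGAGA or its reverse complement TCTCTC, the word of 6 bases with the largest gap in share between promoter summits of other genes and windows 200 bp away.
nhr-1, chrX:17513658-17513758, plus strand: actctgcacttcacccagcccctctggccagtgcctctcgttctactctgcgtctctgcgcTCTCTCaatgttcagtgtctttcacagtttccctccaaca
nhr-48, chrX:15707572-15707672, plus strand: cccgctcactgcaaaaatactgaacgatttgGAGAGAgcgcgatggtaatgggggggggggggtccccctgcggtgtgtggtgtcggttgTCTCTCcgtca
nhr-65, chrV:18838921-18839021, plus strand: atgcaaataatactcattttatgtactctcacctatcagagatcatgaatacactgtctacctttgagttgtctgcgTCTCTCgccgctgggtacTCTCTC
nhr-119, chrII:2801016-2801116, minus strand: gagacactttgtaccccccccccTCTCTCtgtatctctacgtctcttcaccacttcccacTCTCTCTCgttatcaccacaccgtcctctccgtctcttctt
nhr-135, chrV:7093915-7094015, minus strand: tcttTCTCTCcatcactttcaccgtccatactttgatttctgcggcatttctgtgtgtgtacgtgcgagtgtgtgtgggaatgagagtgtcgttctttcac

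In the second set the summit lay in or beside a tRNA gene, and capitals mark GTTCNANNC on either strand, where N is any base. These letters are those of the B box, the internal promoter element that tRNA genes carry for RNA polymerase III.
nhr-255, chrX:15742025-15742125, plus strand: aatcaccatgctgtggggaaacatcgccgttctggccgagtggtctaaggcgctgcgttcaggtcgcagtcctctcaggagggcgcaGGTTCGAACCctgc
nhr-41, chrIV:1388219-1388319, plus strand: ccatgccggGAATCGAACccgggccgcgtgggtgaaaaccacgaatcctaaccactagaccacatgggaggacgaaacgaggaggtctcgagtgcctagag
nhr-193, chrV:16341826-16341926, plus strand: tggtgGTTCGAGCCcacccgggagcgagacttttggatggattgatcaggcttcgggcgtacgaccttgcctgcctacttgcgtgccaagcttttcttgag

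The third set holds strong summits with neither: nhr-142, whose summit is nearer to the start of another gene, and nhr-35, the strongest summit between genes for which the member was the nearest start and no tRNA gene lay near.
nhr-142, chrV:5791025-5791125, minus strand: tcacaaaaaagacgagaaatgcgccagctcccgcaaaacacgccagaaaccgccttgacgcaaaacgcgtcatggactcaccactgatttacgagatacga
nhr-35, chrX:4532347-4532447, plus strand: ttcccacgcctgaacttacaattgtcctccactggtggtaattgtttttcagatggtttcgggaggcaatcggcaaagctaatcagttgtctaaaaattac

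GAGAGA was found at 9 of the 19 member summits (47.4%, Wilson 95% interval 27.3 to 68.3) and at 358 of 1802 promoter summits of other genes (19.9%). In windows of the same 101 bp centred 200 bp away it was in 2 of 38 beside members and in 7.66% of 3604 beside the others. Besides the members printed, nhr-47, nhr-49, nhr-66 and nhr-131 held it. With 25 bp on each side of the summit it was at 5 of 19 members and 11.4% of the others, and with 100 bp at 9 of 19 and 31.5%, a smaller contrast. The nuclear receptor half-site AGGTCA was at none of the 19, against 2.44% of the other summits, and CTGCGTCT was at nhr-1 and nhr-65, against 7.71%. The palindrome CACGTG was at nhr-86 alone, against 3.39%, and GGGCGG at nhr-105 alone, against 6.99%. GTTCNANNC was at 5 members, nhr-255, nhr-41, nhr-193, nhr-1 and nhr-105, against 4.38% of the other summits. The other words with a large gap were rarer than GAGAGA at members: ACGCAG was at 3, ACGCGC at 1, CGCGCC at 1 and CGTCTC at 4, against 14.4%, 13.3%, 12.9% and 15.5%. Over the same 101 bp the median GC content was 49.5% at member summits and 47.5% at the others, while the flanks had 35.2% and 35.6%. All motifs were searched on both strands, and TCTCTC can share letters with CGTCTC and CTGCGTCT, as it does at nhr-65. A match is a match of letters only.

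Signal at the bound members spanned a wide range, and both replicates had the same 3 members at the top, in the same order. The strongest was nhr-47, at chrV:5505253-5509956, with 393 in replicate 1 and 323 in replicate 2, a mean of 358 ± 49.7 (SD, n = 2). Its summit lay 5 bp inside the transcript, in the 5' UTR, and in the promoter window of dnj-19, which encodes a DnaJ co-chaperone, as well, and inside the noncoding RNA gene C24G6.10. At nhr-142 (chrV:5785957-5790553) the replicates had 370 and 272, a mean of 321 ± 69.1 (SD, n = 2). That summit lay at -522 bp from nhr-142 but only 155 bp from the start of F44E7.9. At nhr-255 (chrX:15742610-15744298), with 314 and 252, it lay inside a tRNA gene, 535 bp upstream of the receptor gene. The 3 strongest sites therefore each had another gene at or near the summit.

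**Figure D1:**
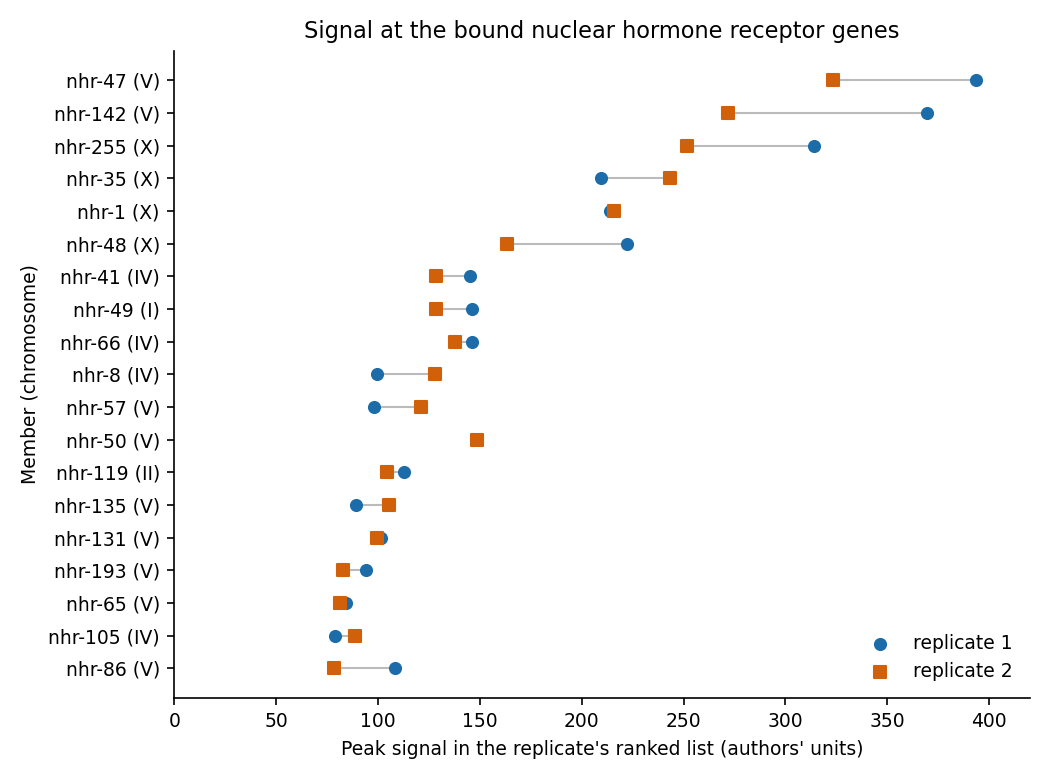
Peak signal (authors' units, linear axis from 0) of the 19 bound members in replicate 1 (circles) and replicate 2 (squares), in order of signal in the conservative set, with the chromosome in brackets. The 3 members at the top, nhr-47, nhr-142 and nhr-255, were above 250 in both replicates, and nhr-50 has no point for replicate 1.

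Below these came receptors on X with the summit between genes. At nhr-35 (chrX:4532691-4537546) the signal was 210 in replicate 1 and 243 in replicate 2, with the summit 294 bp upstream. At nhr-1 (chrX:17514063-17528197) it was 214 and 216, the closest match between replicates, at -355 bp. The summit of nhr-48 (chrX:15708213-15716875), a relative of the sterol receptor gene daf-12, was at -591 bp with 222 and 163. No other protein-coding start lay nearer to any of the 3, and no tRNA, snRNA, snoRNA or spliced leader gene lay within 200 bp. These were also present in both thresholded lists of the single replicates.

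Receptors of fat and sterol metabolism had moderate signal. NHR-49 switches on fatty acid desaturation and oxidation, and its gene (chrI:9869651-9874680) had 146 in replicate 1 and 128 in replicate 2, a mean of 137 ± 12.5 (SD, n = 2), with the summit at -308 bp from the most upstream of its 6 starts. NHR-66 is a partner of NHR-49 in lipid gene control. At nhr-66 (chrIV:8226331-8236602) the values were 146 and 138, and the summit was 140 bp upstream of an internal start, 7025 bp from the most upstream one, within an annotated 5' UTR of another transcript. NHR-8, a receptor of cholesterol balance and resistance to foreign compounds, had 99.7 and 128 at its gene (chrIV:7710983-7714210), 51 bp inside the transcript and in its 5' UTR. Its summit was in the thresholded list of replicate 1 and not in that of replicate 2, although the signal was higher in replicate 2.

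Among receptors of stress and of bacterial sensing, nhr-57 (chrV:4131889-4135102), which responds to low oxygen through HIF-1, had 97.8 in replicate 1 and 121 in replicate 2 at -221 bp. At nhr-86 (chrV:2061106-2066850), whose product senses a metabolite of a bacterial pathogen, replicate 1 had 108 and replicate 2 had 78.2. The summit of nhr-86 was the weakest of the 19 in the conservative set, at 139 with both samples together, and the farthest upstream, at -794 bp. It was in the window of lbp-9, which encodes a fatty acid binding protein, and a stronger summit of 277 lay at -1307 bp, nearer to lbp-9.

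The conserved receptor gene nhr-41 (chrIV:1386215-1399353), counterpart of fly DHR78 and the vertebrate testicular receptors, had 145 in replicate 1 and 128 in replicate 2. Its summit was in an intron, 172 bp downstream of an internal start, and inside a tRNA gene on the opposite strand. The remaining 7 bound members have no role stated here. In replicates 1 and 2, nhr-119 had 112.7 and 104.6. The same replicates had 101.5 and 99.6 at nhr-131, and 89.1 and 105.2 at nhr-135. At nhr-193, with 94.2 and 82.7, a tRNA gene lay 25 bp from the summit and the noncoding RNA gene F57G8.13 at 17 bp. These 4 were close to each other in signal. The lowest means were at nhr-65, with 82.8 ± 2.16 (SD, n = 2), and nhr-105, with 83.7 ± 6.99 (SD, n = 2). At nhr-50 (chrV) replicate 2 had 149 and the ranked list of replicate 1 held no overlapping peak, so no mean is given, while the set from both samples had 218.

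In the 18 members with a value in each replicate the replicates differed by less than 2-fold. On the log2 scale, replicate 1 minus replicate 2 had a median of 0.10 over them, from -0.36 at nhr-8 to 0.47 at nhr-86. Over 2150 bound genes with both values the median was 0.09, and 98.9% lay within 2-fold. Of the members, 12 were higher in replicate 1 and 6 in replicate 2. Differences among nhr-41, nhr-49 and nhr-66, with means of 137, 137 and 142.1, were within their replicate SDs. That did not hold for all neighbours in the order. The means of nhr-255 and nhr-35, 283 ± 44.1 and 226 ± 23.8 (SD, n = 2), were farther apart than either SD.

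Compared with all bound genes, the members stood in the lower part of the signal range. Their median signal in the conservative set was 224, with a range of 139 to 708, against 296 for all 2184 bound genes. Only 6 of the 19 were above that median of 296: nhr-47, nhr-142, nhr-255, nhr-35, nhr-1 and nhr-48. The rank of nhr-47 among the 3291 conservative peaks was 205, and that of nhr-86 was 3132.

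Where the summit lay relative to the gene also varied. The median position was -294 bp, against -251 bp for all bound genes, and 14 of the 19 summits were upstream of the member's nearest start. Among all bound genes 92.9% were upstream. Of the member summits, 13 lay between protein-coding genes, 5 in a 5' UTR of the member itself and 1 in an intron, that of nhr-41. The member was the nearest protein-coding start in 18 cases, the exception being nhr-142. Only 3 members shared the summit with another gene, or 15.8% (Wilson 95% interval 5.52 to 37.6), whereas 1070 of the 2184 bound genes of the genome did. Those 3 were nhr-47, nhr-142 and nhr-86. A small noncoding RNA gene lay within 200 bp of the summit at 3 members, all tRNA genes, and at 5.45% of all bound genes.

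**Figure D2:**
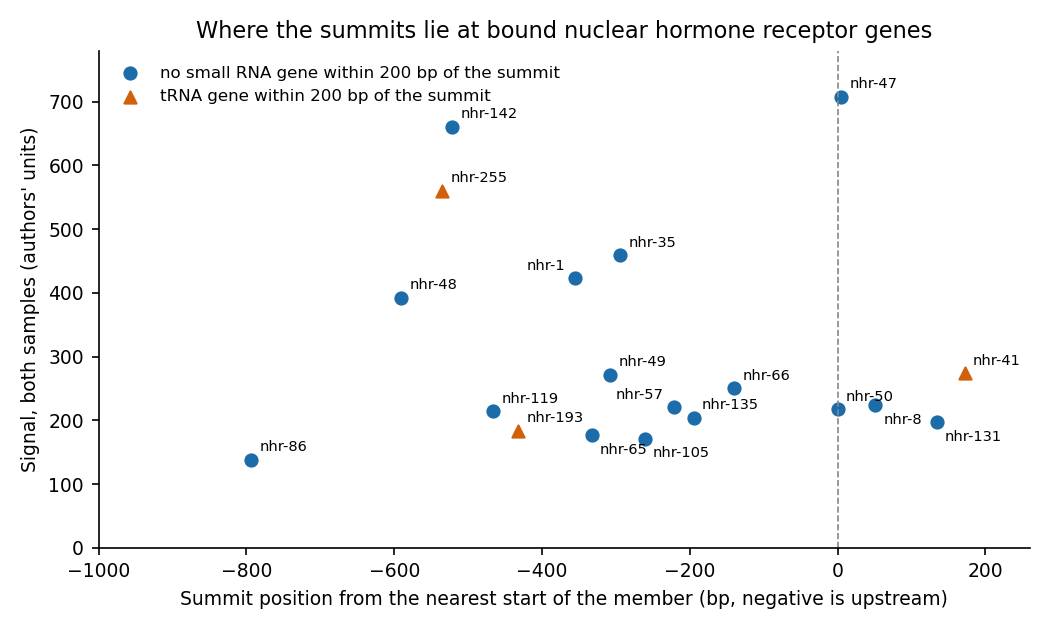
Signal in the conservative set (authors' units) of the 19 bound members against the position of the summit from the member's nearest transcript start in bp, where the dashed line is the start. Triangles mark nhr-255, nhr-41 and nhr-193, whose summits had a tRNA gene within 200 bp; 14 of the 19 summits lie to the left of the line.

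The chromosomes were unevenly represented in the family, with 167 of 269 members (62.1%) on V, where 4994 of the 19973 genes lie. On V, 9 of 167 members were bound (5.39%, Wilson 95% interval 2.86 to 9.92), against 7.19% of all genes there. On the other chromosomes together 10 of 102 were bound (9.80%, interval 5.41 to 17.1), against 12.2% of all genes. If the members of each chromosome had been bound at the share of all its genes, 24.1 would have been bound in place of 19. The count was thus lower than the genome share also with the chromosome taken into account, but the interval on the members' share is wide.

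On X the order was the other way, with 4 of 23 members bound (17.4%, interval 6.98 to 37.1) against 9.81% of all genes. This share was not stable: it was 8.70% with a narrower promoter window and 30.4% with the larger set. Under these rules the share of all genes in the genome also moved, to 8.48% and 13.7%. The share of all genes on X was taken under the main rule only. On IV the shares were close, 4 of 33 (12.1%) against 11.2%. On I and II, 1 of 23 and 1 of 15 members were bound, against 14.8% and 10.4% of all genes. None of the 8 members on III was bound (interval 0 to 32.4%), where 15.4% of all genes were. The intervals of the members on IV, V, X and II all contain the share of all genes on the same chromosome, as do those on I and III.

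**Figure D3:**
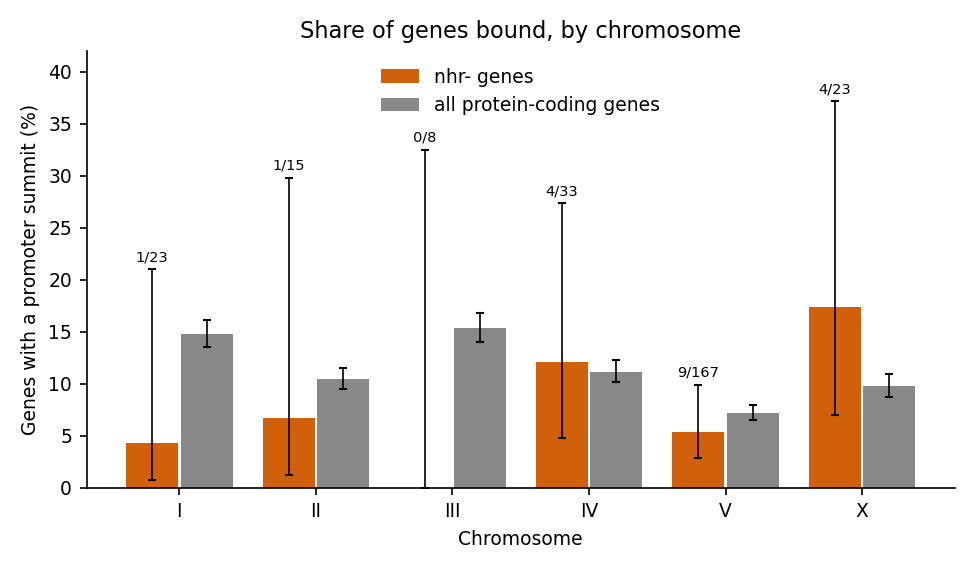
Share of genes with a conservative summit in the promoter window, in percent, by chromosome, for the nhr- genes and for all protein-coding genes. Bars start at 0, error lines are Wilson 95% intervals, and the labels on the nhr- bars give bound members over members; the members range from 0 of 8 on III to 4 of 23 on X.

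Shares were also taken by position along V. In the central 50% of V, 3 of 56 members were bound (5.36%), against 9.41% of all genes there. In the outer parts 6 members were bound (5.41%), against 4.73% of all genes. The members' share was thus below that of all genes in the centre and not in the outer parts, with intervals of 1.84 to 14.6 and 2.50 to 11.3 that contain both values.

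The share bound was lower among members that lie near each other. Of 159 members with another member within 10 kb, 5 were bound (3.14%, Wilson 95% interval 1.35 to 7.15). Of 110 with none that near, 14 were (12.7%, interval 7.73 to 20.2). Of all protein-coding genes 10.9% were bound, which lies above the first interval and inside the second. The direction was the same on V, with 4 of 122 against 5 of 45, and on the other chromosomes, with 1 of 37 against 9 of 65. Most of the 159 thus lay on V, where 7.19% of all genes were bound. The interval for the 4 of 122, 1.28 to 8.13, contains that share. The interval for the 1 of 37, 0.48 to 13.8, contains the 12.2% of all genes on the other chromosomes. The split was made after the values were seen and the difference was not tested.

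The share bound also varied with the number of starts and with the symbol. Members with 1 annotated start were bound in 7 of 167 cases (4.19%), those with 2 or 3 starts in 7 of 82 (8.54%) and those with 4 or more in 5 of 20 (25%). More starts give a gene a larger promoter window, and all genes followed the same order, at 8.73%, 15.5% and 22.9%. By symbol, 12 of 94 members from nhr-1 to nhr-99 were bound (12.8%, interval 7.46 to 21.0) and 7 of 175 with higher numbers (4%, interval 1.95 to 8.03). The share of all protein-coding genes, 10.9%, lies inside the first interval and above the second. Members with higher numbers lay on V more often, and the share of all genes there, 7.19%, lies inside the second interval. The groups by symbol were not split by chromosome or by number of starts.

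The role lists are read beside 7.06% of the family and 10.9% of all genes. Of 15 receptors of metabolism and stress 5 were bound, namely nhr-8, nhr-49, nhr-57, nhr-66 and nhr-86 (33.3%, Wilson 95% interval 15.2 to 58.3). Of 10 conserved receptors 3 were bound, nhr-8, nhr-41 and nhr-48 (30%, interval 10.8 to 60.3). Of 8 receptors of development only nhr-41 was (12.5%, interval 2.24 to 47.1). The intervals of the 3 lists overlap, and those of the development and conserved lists reach down to the share of all genes. Most listed members have symbols from nhr-1 to nhr-99, of which 12.8% were bound. The lists share nhr-8 and nhr-41, among others, and all were written with earlier results known. They are therefore a description, and no interval here can set a list apart from the background.

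The members of these lists without a conservative summit ranged from no peak to 116 in the ranked lists, the authors' longer lists of each sample. Several reached the values of the weaker bound members in 1 replicate, and nhr-65, which is bound, had 84.3 and 81.2. Among developmental receptors, nhr-25, the counterpart of FTZ-F1 and a gene of moulting, had 63.8 in replicate 1 and 71.9 in replicate 2. The moulting regulator nhr-23, counterpart of ROR, had 16.1 and 20.5. At nhr-85, counterpart of Rev-Erb, the replicates were far apart, at 96.8 and 29.3. For nhr-40, a muscle gene, they were 57.8 and 93.7, and for nhr-6, the counterpart of NR4A in the spermatheca, 29.4 and 42.8. The early embryonic gene nhr-2 had 28.0 in replicate 1 and no ranked peak in replicate 2. At nhr-67, counterpart of tailless, and at nhr-111 neither ranked list had a summit. The gene nhr-91, counterpart of the germ cell nuclear factor, had 48.4 and 29.7.

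The unbound metabolic receptors also ranged from no ranked peak to 116. The NHR-49 partner genes nhr-13 and nhr-80 had 73.5 and 83.4, and 51.1 and 84.4, in replicates 1 and 2. The vitamin B12 response gene nhr-114 had 75.4 and 60.6. At nhr-68, which with nhr-10 drives the propionate shunt, replicate 2 had 104 and replicate 1 had no ranked peak. No summit was listed in either replicate at nhr-10, at nhr-62, a gene of the response to dietary restriction, or at nhr-64, and nhr-28 had 15.02 in replicate 2 only. The genes nhr-14 and nhr-69 entered the larger set from both samples. At nhr-14 the replicates had 89.5 and 58.0, and at nhr-69, a homologue of HNF4, 60.6 and 116.

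Of genes that work with the family, 2 of 3 cofactor genes were bound (Wilson 95% interval 20.8 to 93.9%) and none of the hormone genes (interval 0 to 43.4%), beside 10.9% of all genes. The intervals of the lists with a count of 0 contain that share. The coactivator gene cbp-1 had 498 in replicate 1 and 382 in replicate 2, a mean of 440 ± 82.2 (SD, n = 2), at -856 bp, more than any nhr- gene. The gene din-1, whose product is a corepressor of DAF-12, had 290 and 210 at -719 bp. The Mediator subunit gene mdt-15, whose product works with NHR-49, had 28.4 and 14.05 and was not bound. None of the 5 nuclear receptors with other names was bound: daf-12 had 61.8 and 55.7, fax-1 had 36.3 in replicate 2 only, and sex-1, unc-55 and odr-7 had no ranked summit. The 5 genes of dafachronic acid hormone synthesis and its control, daf-9, daf-36, hsd-1, strm-1 and dhs-16, had none in either list. Of 4 fat metabolism genes downstream of NHR-49 none was bound in the conservative set, with fat-6 at 76.4 and 85.4, acs-2 at 103 and 55.2, fat-5 at 13.0 in replicate 1 only, and fat-7 at none.

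The ranked lists cover much of the genome, and the members there were close to the background or below it. In replicate 1, 99 of 269 members had a ranked summit in the window (36.8%, Wilson 95% interval 31.3 to 42.7), against 44.1% of all genes. In replicate 2, whose list is longer, 143 had one (53.2%, interval 47.2 to 59.0), against 53.3%. Both lists held 87 members (32.3%), replicate 1 alone held 12, replicate 2 alone held 56, and 42.4% were in neither. Of all genes 37.7% were in both and 40.3% in neither. In replicate 1 the members' interval thus lay below the share of all genes, while in replicate 2 it contained that share. This difference between the replicates was not tested.

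The bound members had higher ranked signal than the rest, which their choice by the conservative set favours, so this is not a separate result. The 81 unbound members with a ranked summit in replicate 1 had a median of 37.7 and a highest value of 113.9, at nhr-137. In replicate 2, 124 had a median of 40.4 and a highest value of 148, at nhr-178, which had no ranked summit in replicate 1. Unbound genes of the whole genome had medians of 41.8 and 42.4. The bound members ranged from 78.7 to 393 in replicate 1 and from 78.2 to 323 in replicate 2, so the ranges overlapped. Of the 250 unbound members, 244 were below 100 or absent in both replicates, the exceptions being nhr-68, nhr-69, nhr-88, nhr-137, nhr-178 and nhr-291.

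**Figure D4:**
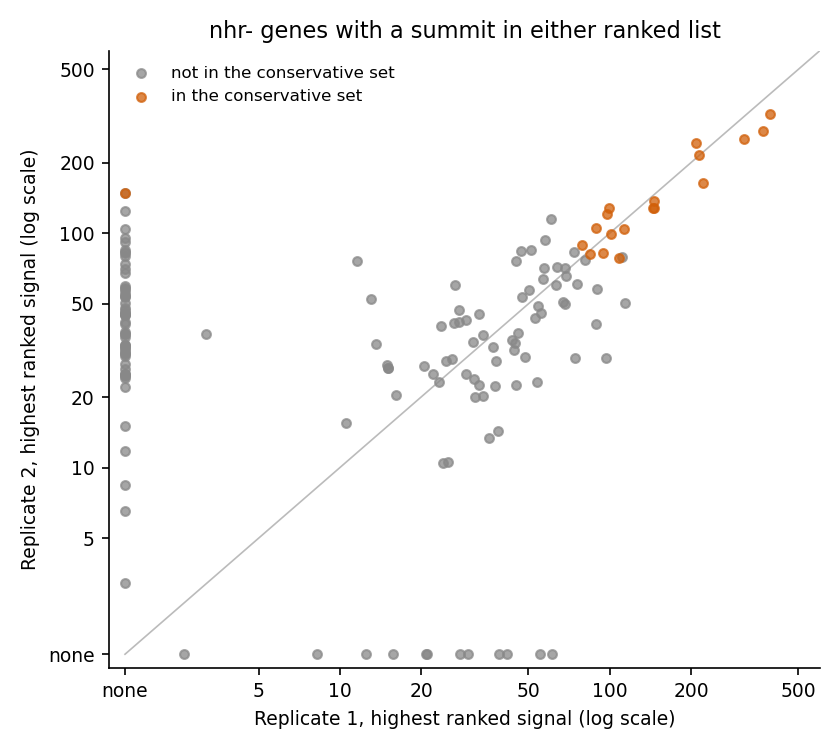
Highest ranked signal in the promoter window in replicate 1 against replicate 2 (authors' units, log axes) for the nhr- genes with a summit in either list, with members missing from a list set at "none" and the grey line marking equal values. The bound members lie at 78 or more in replicate 2, and nhr-50 is the bound member at "none" for replicate 1, next to the unbound nhr-178.

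Among unbound members with a summit in both ranked lists, those with the highest mean ranked signal were nhr-88, nhr-69, nhr-137, nhr-58, nhr-13, nhr-40, nhr-14, nhr-96, nhr-114 and nhr-25. Members listed in a single replicate have no mean and were left out, such as nhr-178 with 148 and nhr-291 with 124 in replicate 2. At nhr-88 the replicates had 111.2 and 79.0, and at nhr-58 they had 81.0 and 76.8. At nhr-96 they had 68.1 and 71.3, and at nhr-137 they had 113.9 and 50.2. The larger set from both samples, in which 13.7% of all genes were bound, contained 27 members. It kept all 19 and added nhr-14, nhr-58, nhr-69, nhr-71, nhr-88, nhr-137, nhr-217 and nhr-219, with signals from 140 at nhr-219 to 182 at nhr-137.

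Single replicates gave similar numbers with a partly different membership. The thresholded list of replicate 1 held 16 members (5.95%), against 10.2% of all genes, and that of replicate 2 held 17 (6.32%), against 10.3%. Of the 19, 12 were in both, nhr-8 and nhr-86 in that of replicate 1 only, nhr-50 and nhr-119 in that of replicate 2 only, and nhr-65, nhr-105 and nhr-193 in neither. Under all 11 other lists and rules tried, 6 members stayed bound: nhr-35, nhr-1, nhr-49, nhr-66, nhr-57 and nhr-135. The rules that set a least signal of 50 or 100 could remove no member, since the weakest had 139.

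**Figure D5:**
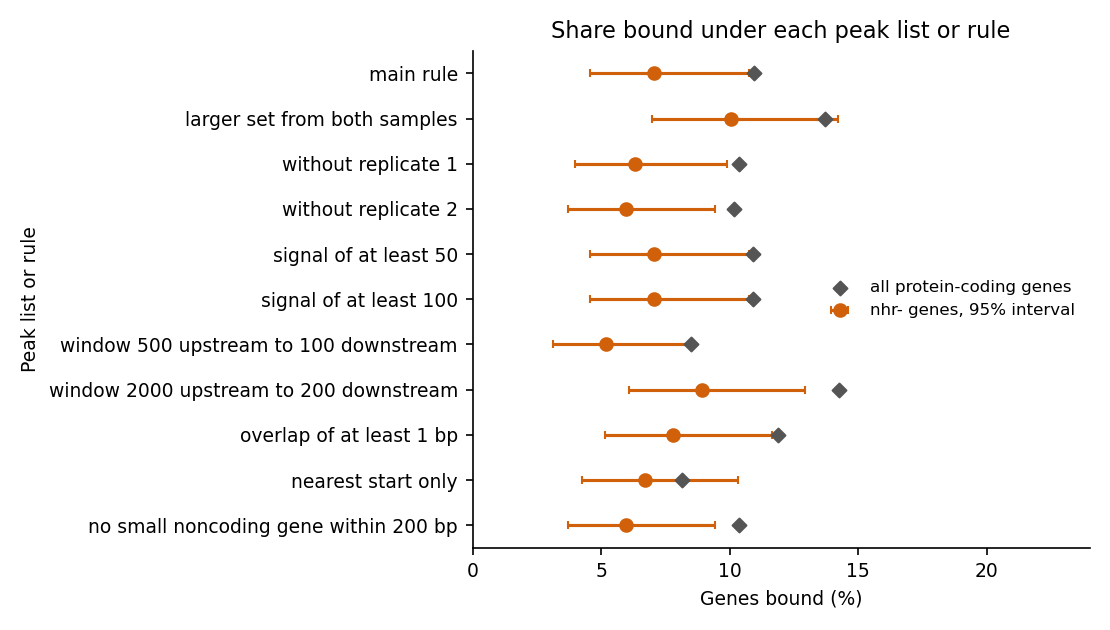
Percent of nhr- genes bound, with Wilson 95% intervals, and percent of all protein-coding genes bound (diamonds), under the main rule and 10 other peak lists or rules. The members' share is below that of all genes in each, with 14 members bound in the narrow window and 27 with the larger set.

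Some strong summits near the family lay outside the promoter windows. The strongest was 1866 bp upstream of nhr-247 on V, with 502 in replicate 1 and 635 in replicate 2, which is higher than at any bound member. At nhr-15 a summit lay at -1018 bp, just beyond the window, with 85.2 and 84.1, and phf-10 was the nearer gene at 138 bp. Inside the window the farthest summit was that of nhr-86. Summits within gene bodies were found at nhr-17, nhr-19, nhr-27, nhr-3, nhr-76, nhr-142, nhr-70, nhr-45 and nhr-88. That of nhr-17 lay in an intron and inside a tRNA gene, with 385 and 236. In nhr-19 an intronic summit 1643 bp from the start had 186 and 216. The long gene nhr-27 held intronic summits 48372 and 46654 bp from its nearest start, both nearer to cept-1.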

How the data were processed

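Chromatin immunoprecipitation followed by sequencing was deposited as peak lists for 2 biological replicates. They form 1 group, so nothing was tested. The authors deposited thresholded and ranked lists per sample, plus a conservative and a larger thresholded set that combine the samples, all on ce11, per the file headers and notes. Signal is a value per peak in the authors' deposited lists, and how it was scaled between samples is not stated. Signal is therefore used only to describe and rank peaks. Which aligner and peak caller were used is not given in the sources used here. Without reads in the lists the depth is unknown, and the intervals rest on gene numbers alone.

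A summit (column 10 added to the peak start) counted for a gene when it lay from 1000 bp upstream to 200 bp downstream of any of its transcript starts in Ensembl release 115 on WBcel235. No peak or gene ended beyond the chromosomes of the RefSeq WBcel235 genome. A replicate's value is the ranked peak that overlaps the conservative peak and has the nearest summit. Wilson 95% intervals cover counting error over genes only. Genes are not independent replicates. The window rule was tested on simulated summits. Tools were Python 3.11.15, numpy 2.4.6, pandas 2.3.3, scipy 1.17.1 and matplotlib 3.10.9.

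Named genes are every member with a conservative summit, every member of the role lists, the 10 other members with the highest mean ranked signal, and bound genes of the receptor pathway. That mean was taken only for members with a summit in both ranked lists. Outside that rule, and after their values were seen, the text names the unbound pathway genes, the members in the larger set only, the unbound members at 100 or more, and members with summits outside the window. Genes outside the family are named where they share a summit. Members and lists were chosen with earlier results of these data known. The tRNA motif, the 4 words other than GAGAGA taken from other summits, the ranking of GAGAGA among such words, the groups by family neighbours, by number of starts and by symbol number, and summits outside the windows were added after the values were seen.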

Additional observations from a re-analysis of the deposited data

How the results depend on the processing

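The number of bound members stayed within 1.5 times of 19 under all 11 alternatives, from 14 with the narrow window to 27 with the larger set, and from 16 to 17 when a single replicate was left out. Among these alternatives, the limits on signal of 50 and 100 could not change the number, since the weakest bound member had 139. The share of members bound on V ranged from 3.59% to 7.78% and on X from 8.70% to 30.4%. For all genes the share by chromosome was taken under the main rule only. Their share in the whole genome ranged from 8.13% to 14.2% over the rules that give one. With each summit given to its nearest start only, the members' share of 6.69% came closest to that of all genes, 8.13%. The members' interval contained the share of all genes there and with the larger set (6.99 to 14.2, against 13.7%). It also did so with the narrow window (3.13 to 8.55, against 8.48%). Under the main rule and the other alternatives with a share for all genes, the interval lay below that share. The mean of the 2 replicate signals had a median of 125 over the 18 bound members with both values. This median was 104.6 with the larger set and 112 with any overlap of peak and window. Without a replicate it was 138 to 146, taken from the thresholded list of the other replicate alone. Members with a ranked summit numbered 87 in both lists and 99 to 143 without a replicate. Fat metabolism genes bound rose from 0 to 1 with the larger set, and were 0 to 1 without a replicate. GAGAGA was at 5 members with 25 bp on each side and at 9 with 100 bp, where 31.5% of other summits held it, choices made after seeing the data. For the ranked lists and GAGAGA the direction was fixed by the rule. Members in both lists cannot outnumber those in a single list, and a narrower window can only lose matches. The cause of the other shifts was not tested. Taking the highest overlapping ranked peak changed no member's value. Depth is unknown, so a missing summit means only that none was listed. No paired analysis was possible because there is 1 group.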
